A study of Mus musculus with 2 samples.

Results

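The genes described here encode the organic anion and organic cation transporters of the Slc22a, Slco and Slc47a families. They were taken from the array's annotation by symbol: every gene with a probe set (a group of short probes against one transcript) that carries exactly 1 symbol of these families, except Slco1a1, Slco1a4 and Slco1b2. This gave 34 genes out of 18193, of which 21 are Slc22a genes, 12 are Slco genes and 1 is Slc47a1. The compared groups were livers of Yap+/- mice, which carry 1 disrupted copy of the gene for the Hippo pathway co-activator YAP, and livers of Yap+/+ mice. Both genotypes were untreated, on a C57BL/6 background of at least 6 generations, and 30 days old. For each genotype the livers of 5 mice were pooled and the RNA was read on 1 Affymetrix array. With 1 pool per genotype there was no replicate and no test between genotypes, and every difference below describes these pools. The labels do not give sex, feeding or time of death, or the part of the gene that is disrupted.

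Slc22a carriers move charged small molecules across the cell membrane, and their branches handle organic cations, carnitine, or organic anions such as urate, steroid conjugates and many drugs. The Slco genes encode the OATP carriers, which take up larger amphipathic anions such as bile acids, steroid conjugates, thyroid hormones and prostaglandins. Slc47a1 encodes MATE1, which exports organic cations in exchange for protons. In liver, uptake carriers mostly sit on the blood-facing membrane of hepatocytes, and many exporters sit on the membrane facing the bile canaliculus. Many other members of these families are known mainly from kidney, testis, brain or gut.

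Values are log2 probe set values, and a difference is the Yap+/- value minus the Yap+/+ value. A gene was represented by its probe set with the highest mean and called measured at a mean of at least 6 over both arrays, which 9299 genes reached. Among measured genes the difference had a robust SD of 0.15. In 3406 genes with at least 2 measured probe sets, the brightest pair gave differences that were apart by 0.17 (robust SD). The SD of 0.15 includes any true difference between the pools, and how far pools or mice of 1 genotype differ was not measured. Yap1 itself read 9.24 in the Yap+/- pool and 9.40 in the Yap+/+ pool, a difference of -0.15, about the size of that SD. The Yap1 reading thus does not by itself show the genotype, which is taken from the labels. The 6 hepatocyte markers read 12.07 to 15.09 in the Yap+/- pool and 12.29 to 15.09 in the Yap+/+ pool. The excess of 3-prime over 5-prime signal, a mark of RNA or labelling quality, was larger in the Yap+/- pool by 0.20 to 0.22 for the control transcripts of beta-actin, pyruvate carboxylase and Gapdh. The part of this shift in the differences below was not tested. In pooled tissue, a lower share of one cell type and less RNA per cell cannot be told apart.

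Of the 34 transporter genes, 13 were measured. None of the 13 differed by 2-fold, against 0.323% of all measured genes. At a smaller threshold, a difference of 0.32 on the log2 scale, 2 of the 13 were higher in Yap+/- liver, Slc22a7 and Slc22a26, against 3.86% of all measured genes. At the same threshold 0 of the 13 were lower, against 3.18%. The median difference was 0.026 over the 13 genes and 0 over all measured genes, and the median size of a difference was 0.089 for the 13 genes and 0.099 for all measured genes. By sign, 8 of the 13 read higher in the Yap+/- pool and 5 lower, compared with 4542 higher and 4610 lower among all measured genes.

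**Figure D1:**
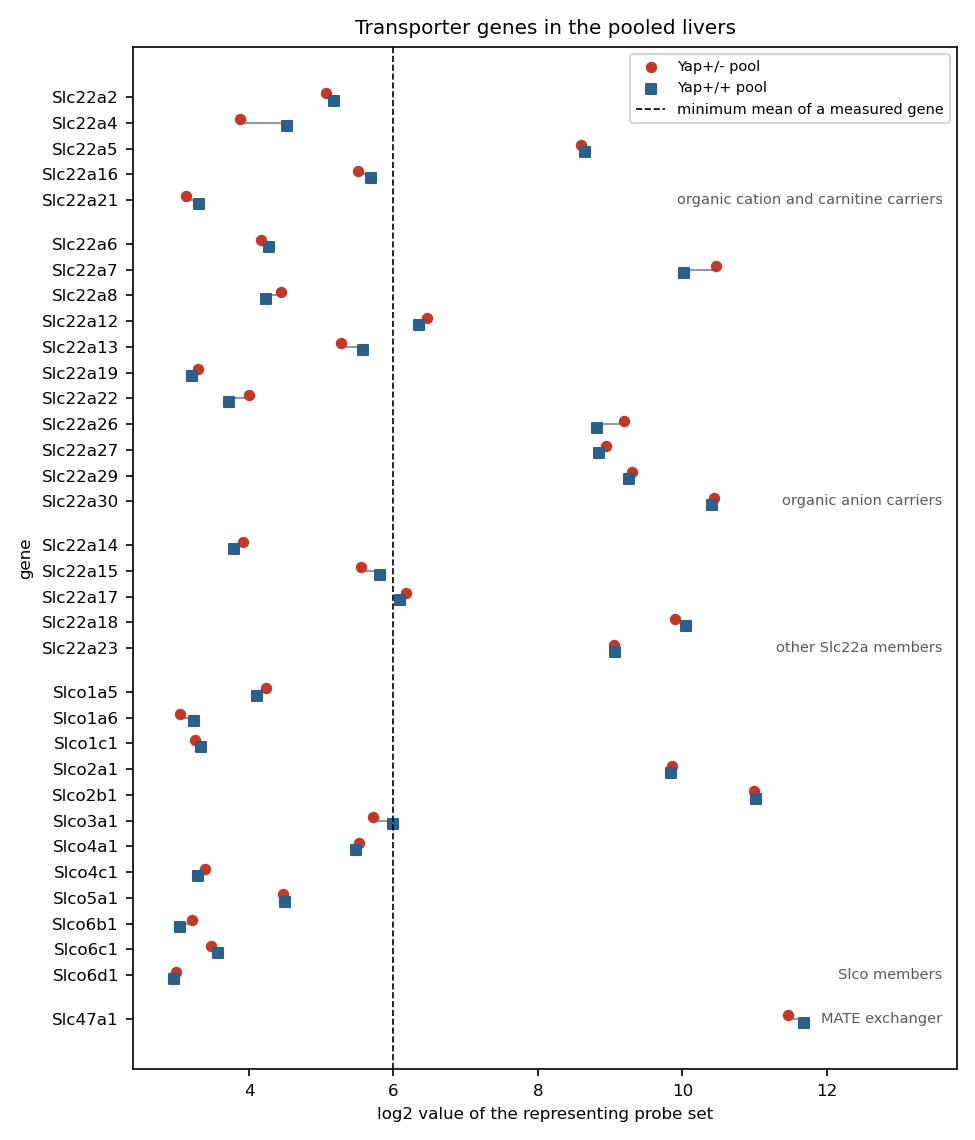
Log2 value of the representing probe set of each of the 34 transporter genes, by functional class, in the Yap+/- pool (circles) and the Yap+/+ pool (squares), 1 array each; the dashed line marks the minimum mean of 6. The 13 measured genes lie right of the line with close pairs of points, and the other 21 lie left of it. Levels of different probe sets are not comparable with each other.

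The organic anion carriers held both genes past the smaller threshold. Slc22a7 encodes OAT2, an organic anion carrier of the hepatocyte's blood-facing membrane. It read 10.46 in the Yap+/- pool and 10.03 in the Yap+/+ pool, a difference of 0.43 or 1.35-fold. Of all measured genes, 3.27% differed by at least this much in either direction. The array had 1 probe set for Slc22a7, so no second reading of this gene was available.

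A row of neighbouring genes on mouse chromosome 19, Slc22a26, Slc22a27, Slc22a28, Slc22a29 and Slc22a30, belongs to a clade of organic anion carrier relatives found in rodents. RefSeq places them next to each other, with Slc22a19 on one side and the kidney genes Slc22a8 and Slc22a6 on the other. Slc22a28 was not analysed here. Close relatives of this kind can share array signal. The sequences that the probes read were not compared. The upstream sequences do not bear on shared signal, and show only how alike the genes are before their start sites. The 250 bases before the annotated start sites of Slc22a29 and Slc22a30 (RefSeq, GRCm38.p6, both on the minus strand, at chr19:8218901-8219150 and chr19:8405106-8405355) are printed because this pair was the most alike of the 4 measured neighbours. Capitals mark the longest run of bases that the pair shares.
Slc22a29: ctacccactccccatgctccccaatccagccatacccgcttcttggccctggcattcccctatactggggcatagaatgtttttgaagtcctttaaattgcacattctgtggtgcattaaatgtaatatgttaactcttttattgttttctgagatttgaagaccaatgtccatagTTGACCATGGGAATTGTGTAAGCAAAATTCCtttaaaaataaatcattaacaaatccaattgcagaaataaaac
Slc22a30: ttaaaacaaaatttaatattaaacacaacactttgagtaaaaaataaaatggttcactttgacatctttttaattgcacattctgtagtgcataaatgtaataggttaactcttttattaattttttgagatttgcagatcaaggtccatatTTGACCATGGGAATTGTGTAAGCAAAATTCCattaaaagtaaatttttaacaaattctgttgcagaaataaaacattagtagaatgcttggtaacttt
The shared run is 31 bases long. In a global alignment, 182 of 221 aligned base pairs of these windows were identical, or 82.35%. For the other 5 pairs among Slc22a26, Slc22a27, Slc22a29 and Slc22a30 the share was 63.68% to 74.42%, and their longest shared run was 8 to 14 bases. These shares leave out gap positions, 58 for Slc22a29 with Slc22a30 and 70 to 106 for the other pairs. The share between unrelated windows was not computed.

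Among these neighbours, Slc22a29 and Slc22a30 differed least between the pools. A link of this with the likeness of their upstream windows was not tested. Slc22a29 read 9.30 in the Yap+/- pool and 9.26 in the Yap+/+ pool, a difference of 0.034. Slc22a30 read 10.44 in the Yap+/- pool and 10.41 in the Yap+/+ pool, a difference of 0.026. A further probe set, annotated to both of these genes and therefore outside the gene comparison, read 9.16 in the Yap+/- pool and 9.18 in the Yap+/+ pool, a difference of -0.021. All 3 readings thus lay well within the disagreement between probe sets of a gene. Slc22a27 read 8.95 in the Yap+/- pool and 8.84 in the Yap+/+ pool, a difference of 0.11. The probe sets of Slc22a27 and Slc22a29 carry the suffix for sequences shared between genes, so their values are uncertain to that extent.

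Slc22a26, which is counted among the female-predominant liver genes of the mouse, read 9.19 in the Yap+/- pool and 8.82 in the Yap+/+ pool on its brighter probe set. The difference of 0.37, or 1.30-fold, was reached in size by 4.94% of measured genes. Its second measured probe set read 8.49 in the Yap+/- pool and 8.45 in the Yap+/+ pool, a difference of 0.036. The call of Slc22a26 thus rests on 1 of 2 probe sets, and the mean over both, 0.21, is under the smaller threshold. The labels do not give sex, so for this gene a different mix of sexes in the pools cannot be told apart from genotype.

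The upstream window of Slc22a26 (chr19:7802668-7802917, minus strand, RefSeq GRCm38.p6) is printed because this is the gene of the row that passed the smaller threshold, and because the window holds a match to the palindrome TTCNNNGAA, the form of site that STAT factors bind. STAT5 is the factor through which growth hormone acts on sex-biased liver genes. Capitals mark the match, which starts 141 bases before the annotated start site.
Slc22a26: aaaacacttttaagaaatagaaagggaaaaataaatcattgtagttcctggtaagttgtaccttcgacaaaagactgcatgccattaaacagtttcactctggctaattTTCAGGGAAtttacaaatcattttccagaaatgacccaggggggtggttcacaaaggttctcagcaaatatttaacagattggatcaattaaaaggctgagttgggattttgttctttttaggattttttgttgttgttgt
Upstream windows of this length were found for 11 of the 13 measured genes, all but Slc22a7 and Slc47a1, with 13 windows in all because Slco2b1 has several start sites. Both strands were searched. TTCNNNGAA was present in 2 of the 13 windows, 1 each of Slc22a26 and Slco2b1, and in 7.02% of 32851 windows of all genes. GGAATG, the core letters bound by the TEAD partners of YAP, was present in 4 of the 13, those of Slc22a27 and Slc22a29 and 2 of Slco2b1, and in 12.64% of all windows. A match describes the letters of the window and does not show that a factor binds there. Slco2b1, the other gene with a TTCNNNGAA match, differed by -0.038, and the STAT5 gene Stat5b differed by 0.045. Whether STAT5 has a part in the difference of Slc22a26 was not tested.

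Slc22a12, the urate exchanger URAT1 of kidney tubules, was measured only just above the minimum. It read 6.46 in the Yap+/- pool and 6.35 in the Yap+/+ pool, a difference of 0.11, while its second probe set, below the minimum, gave -0.082. The sign of its difference therefore depended on the probe set. All 6 measured organic anion carriers read higher in the Yap+/- pool on the representing probe set, by 0.026 to 0.43 with a median of 0.11. Among all measured genes 4542 read higher and 4610 lower. Only Slc22a7 and Slc22a26 passed the smaller threshold. The 6 readings are not all separate, since the probe sets of Slc22a27 and Slc22a29 can share signal with other genes. The probe set annotated to both Slc22a29 and Slc22a30 gave -0.021.

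The other organic anion carriers are known mainly from kidney, and 5 of the 11 were not measured. Slc22a6 and Slc22a8 encode OAT1 and OAT3, which take up anions from blood into tubule cells. Slc22a6 read 4.16 in the Yap+/- pool and 4.28 in the Yap+/+ pool. Slc22a8 read 4.44 in the Yap+/- pool and 4.23 in the Yap+/+ pool. Slc22a13, Slc22a19 and Slc22a22, the last a prostaglandin carrier of the mouse kidney, differed by -0.29, 0.080 and 0.28. Of 6 kidney markers 1 was measured, Slc5a2, named after its value was seen, at 6.87 in the Yap+/- pool and 6.96 in the Yap+/+ pool, and the other 5 read 3.11 to 5.46 in the Yap+/- pool and 3.34 to 5.34 in the Yap+/+ pool.

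Among the carriers of organic cations and carnitine, only Slc22a5 was measured. Slc22a5 encodes OCTN2, the sodium-dependent carrier that brings carnitine into cells for mitochondrial fatty acid transport. It read 8.60 in the Yap+/- pool and 8.66 in the Yap+/+ pool, a difference of -0.058. Its second probe set read 3.74 in the Yap+/- pool and 4.19 in the Yap+/+ pool, a level below the median of all probe sets, 4.92, at which a fold is not exact. Genes that make and use carnitine were also close between the pools. All 9 were measured, 0 passed the smaller threshold, and their differences ran from -0.089 for the acetyltransferase Crat to 0.079 for the peroxisomal octanoyltransferase Crot, with a median of 0.0061. Next in size was Cpt2, the inner mitochondrial palmitoyltransferase, at -0.064.

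Slc22a4 and Slc22a21 are the neighbours of Slc22a5 on chromosome 11. Slc22a4 encodes OCTN1, a carrier of ergothioneine and cations. It read 3.87 in the Yap+/- pool and 4.52 in the Yap+/+ pool, a difference of -0.65, which was the largest in size among the 34 genes. Both values lay below the median of all probe sets, so neither pool is shown to have signal above background and the fold is not exact. Slc22a21, which encodes the carnitine carrier OCTN3 of the mouse, read 3.13 in the Yap+/- pool and 3.31 in the Yap+/+ pool. The kidney carrier gene Slc22a2, for OCT2, read 5.07 in the Yap+/- pool and 5.18 in the Yap+/+ pool. Slc22a16, a carnitine carrier gene known from testis, was just under the minimum at 5.51 in the Yap+/- pool and 5.69 in the Yap+/+ pool.

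Slc47a1 had the most negative difference of the 13 measured genes. It read 11.46 in the Yap+/- pool and 11.68 in the Yap+/+ pool, a difference of -0.22 or 1.16-fold lower in Yap+/- liver. Of all measured genes, 18.0% differed by at least this much, so the difference was inside the smaller threshold and not unusual in size for this pair of arrays.

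Of the remaining Slc22a genes, Slc22a18 and Slc22a23 were well above the minimum. Slc22a18 is an imprinted gene of an orphan carrier. Its brighter probe set read 9.90 in the Yap+/- pool and 10.05 in the Yap+/+ pool, a difference of -0.16. The second probe set read 8.46 in the Yap+/- pool and 8.88 in the Yap+/+ pool, a difference of -0.42 or 1.34-fold. Both readings of Slc22a18 were lower in Yap+/- liver, and the less bright of them was past the smaller threshold. Slc22a23, an orphan carrier gene, read 9.06 on both arrays, with a difference of -0.0067. Slc22a17, which encodes a cell surface receptor of lipocalin-2, read 6.18 in the Yap+/- pool and 6.09 in the Yap+/+ pool, near the minimum, with a difference of 0.089. Slc22a15 was under the minimum at 5.55 in the Yap+/- pool and 5.81 in the Yap+/+ pool, and its second probe set gave a difference of the other sign, 0.20. The sperm carrier gene Slc22a14 read 3.92 in the Yap+/- pool and 3.80 in the Yap+/+ pool.

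**Figure D2:**
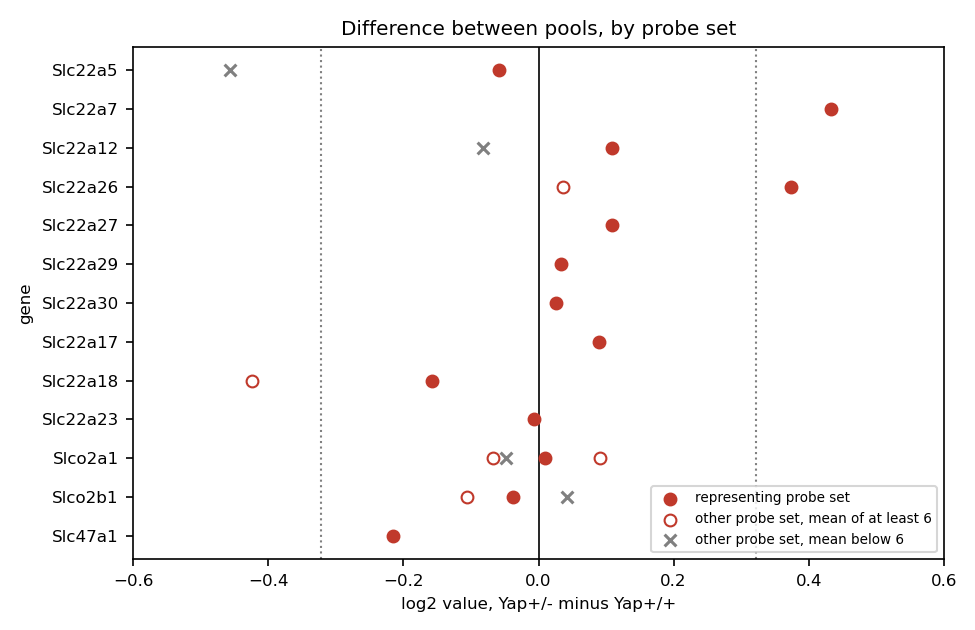
Difference of the log2 value, Yap+/- minus Yap+/+, for every probe set of the 13 measured genes; filled circles are the representing probe sets, open circles others with a mean of at least 6, crosses those below it, and dotted lines mark 0.32 in each direction. Slc22a26 and Slc22a18 are the genes whose measured probe sets lie furthest apart, and those of Slco2a1 and Slco2b1 lie near 0.

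The representing probe sets of both measured Slco genes gave nearly equal values in the pools. Slco2b1 encodes OATP2B1, a broad carrier of anions including oestrone sulphate. It read 10.99 in the Yap+/- pool and 11.02 in the Yap+/+ pool, a difference of -0.038, and its other measured probe set gave -0.11. Slco2a1 encodes the prostaglandin transporter PGT, which takes prostaglandins up for breakdown. It read 9.86 in the Yap+/- pool and 9.84 in the Yap+/+ pool, a difference of 0.010. Its other measured probe sets gave 0.091 and -0.068, so the readings of Slco2a1 straddled 0.

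Of 11 genes of prostaglandin synthesis and breakdown 7 were measured, of which 1 was lower past the smaller threshold and 0 higher, against 3.18% and 3.86% of all measured genes, with a median of 0.0098. Ptgr1, a prostaglandin reductase, was the gene past it at 7.97 in the Yap+/- pool and 8.38 in the Yap+/+ pool. Ptgds, a prostaglandin D synthase, differed by 0.12. Hpgd, which oxidises the prostaglandins that PGT brings in, differed by -0.12.

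The other 10 Slco genes were not measured. Slco3a1, a widely expressed prostaglandin and thyroxine carrier gene, came closest at 5.72 in the Yap+/- pool and 6.00 in the Yap+/+ pool. Its other 2 probe sets, also below the minimum, gave -0.055 and -0.19, so all 3 readings of Slco3a1 were negative. Slco4a1, for a thyroid hormone carrier, read 5.53 in the Yap+/- pool and 5.48 in the Yap+/+ pool. Slco1c1, the thyroxine carrier gene of brain capillaries, read 3.26 in the Yap+/- pool and 3.34 in the Yap+/+ pool. The testis genes Slco6b1, Slco6c1 and Slco6d1 differed by 0.17, -0.095 and 0.034, at levels of 3.00 to 3.47 in the Yap+/- pool and 2.96 to 3.57 in the Yap+/+ pool. Slco1a5, Slco1a6, Slco4c1 and Slco5a1 read 3.05 to 4.47 in the Yap+/- pool and 3.24 to 4.50 in the Yap+/+ pool. The family genes not counted as members, Slco1a1, Slco1a4 and Slco1b2, differed by -0.47, -0.24 and 0.11 on their brightest probe sets. The other measured probe set of Slco1a1 gave -0.35, so both readings of Slco1a1 were lower past the smaller threshold. For Slco1b2, the other 2 measured probe sets gave -0.076 and -0.43.

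Taken as a group, the 21 genes that were not measured read 3.00 to 5.72 in the Yap+/- pool, with a median of 4.01, and 2.96 to 6.00 in the Yap+/+ pool, with a median of 4.11. Of these, 15 were below the median of all probe sets on both arrays. Differences ran from -0.65 to 0.28, with 9 positive and 12 negative, and 1 gene, Slc22a4, was past the smaller threshold in either direction. The same counts over all genes below the minimum were not made, so these have no background beside them. At these levels the arrays do not show whether a transcript was present.

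**Figure D3:**
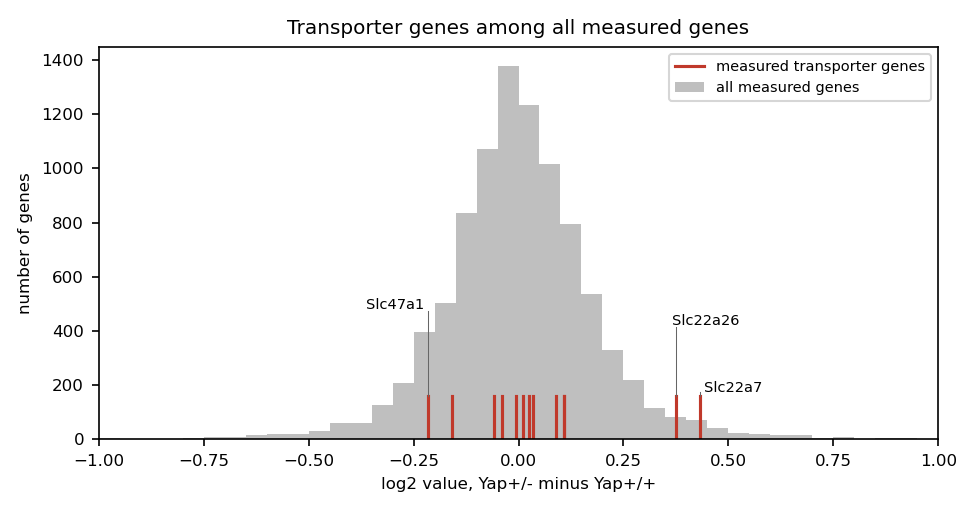
Number of measured genes by difference of the log2 value, Yap+/- minus Yap+/+, in grey, with the 13 measured transporter genes as red lines; the 30 genes at or past 2-fold are not drawn. Most transporter genes lie in the central part of the distribution, with Slc22a7 and Slc22a26 in its right tail.

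Other parts of the transport system were read from lists of genes. Of 13 ABC exporters, the ATP-driven pumps of drugs, bile salts and conjugates, 10 were measured, 1 was lower past the smaller threshold and 0 were higher, against 3.18% and 3.86% of all measured genes, with a median of 0.0084. Abcc3, which exports conjugates back to blood, read 10.03 in the Yap+/- pool and 10.50 in the Yap+/+ pool. Abcc6 differed by 0.24 and Abcc5, an exporter of cyclic nucleotides, by -0.24. Of 12 other uptake carriers for bile acids, nucleosides, vitamins and choline, 5 were measured, 0 passed the smaller threshold, and the median was -0.15. In that list the thiamine carrier Slc19a2 differed by -0.21, the nucleoside carrier Slc29a1 by -0.18 and the bile acid carrier Slc10a1 by -0.15. All 6 scaffold and membrane partner genes were measured and 0 passed, with a median of -0.036. The scaffold Slc9a3r2 differed by 0.18, the membrane linker Ezr by -0.16 and Pdzk1, a PDZ scaffold that binds carriers at their tails, by -0.14.

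Of 15 measured transcription factors that act on transporter genes, 3 were higher and 2 lower past the smaller threshold, against 3.86% and 3.18% of all measured genes, and the median was 0.045. Nr0b2, the repressor SHP, read 9.82 in the Yap+/- pool and 8.98 in the Yap+/+ pool. Onecut1 read 6.64 in the Yap+/- pool and 7.25 in the Yap+/+ pool. Nr1i2, the xenobiotic receptor PXR, read 7.73 in the Yap+/- pool and 7.28 in the Yap+/+ pool. The other two past the threshold, named here after their values were seen, were the activator Cebpb at 0.39 and the xenobiotic receptor CAR, Nr1i3, at -0.42.

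**Figure D4:**
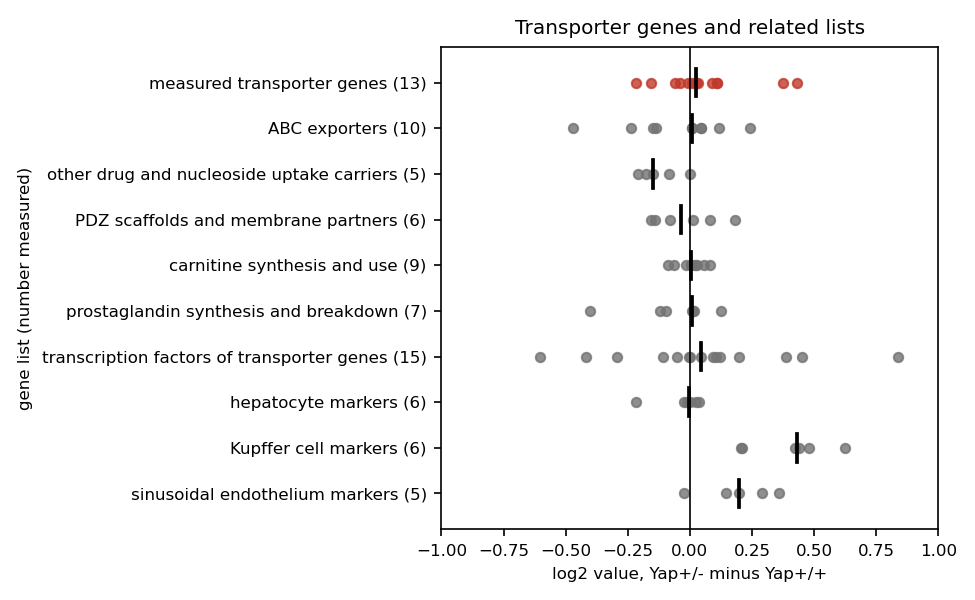
Difference of the log2 value, Yap+/- minus Yap+/+, for the measured genes of each list (points; number in parentheses) and their median (bars). The transporter genes centre near 0 with a median of 0.026, and all 6 Kupffer cell markers are positive.

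Of the markers of other liver cells, those of Kupffer cells had the most members past the smaller threshold. All 6 were higher in the Yap+/- pool, 4 of them past the smaller threshold, with a median difference of 0.43, at 7.46 to 11.67 in the Yap+/- pool and 6.98 to 11.23 in the Yap+/+ pool. Of 5 sinusoidal endothelial markers 4 read higher, 1 of them past the smaller threshold, with a median of 0.20. The 4 bile duct markers found, at 4.72 to 5.81 in the Yap+/- pool and 4.88 to 6.73 in the Yap+/+ pool, had means below the minimum and did not go one way. Krt19 differed by -1.90, Krt7 by -0.15, Epcam by -0.11 and Sox9 by 0.26. Of the 6 hepatocyte markers, 5 read close to the highest value of the arrays, 15.15, where a difference would hardly show, and the sixth, Tat, differed by -0.22. The part of these cell type differences in the differences of the transporter genes was not tested.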

How the data were processed

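Total liver RNA was labelled from the 3-prime end and hybridised to 1 array per genotype, each a pool of 5 livers, per the labels' protocols. The authors deposited log2 values per probe set, for which RMA and Partek 6.5 were used per the submitters' processing notes, with settings not given in the sources used here. Names came from GEO's platform annotation, and probe sets with several symbols or none and 64 array controls were left out. The members and gene lists were chosen with earlier results of these data known. Genes named are all members with a mean of at least 6, others past the smaller threshold of 0.32, the 3 just under the minimum, and up to 3 measured genes per list. Members outside this rule are also given, to account for all 34. Differences were counted at 2-fold and at the smaller threshold, with no test because there is 1 array per genotype. The counting at 2-fold was run on simulated data with shifts well past 2-fold, which checks the code only. The smaller threshold was not tested in this way. The number of arrays limits the precision. RefSeq (GRCm38.p6) supplied neighbours and upstream sequences. Of the genes on the lists, 7 had no probe set of their own symbol listed and were not used here. Alternatives covered the filter, the probe set rule, the scaling and the threshold. Python 3.11.15 was used with pandas 2.3.3 and numpy 2.4.6, with statsmodels 0.14.6 for lowess and matplotlib 3.10.9 for plots.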

Additional observations from a re-analysis of the deposited data

How the results depend on the processing

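No paired analysis was possible because each genotype has 1 pool and the labels give no shared replicate numbers. Under 10 alternatives the count of transporter genes at or past the fold threshold remained 0, at 1.5-fold and 3-fold as well. For these thresholds, a stricter minimum and median centring, the count was fixed by the largest measured difference, 0.43, and could not change. Without the filter, the largest difference of any probe set of these genes was -0.65, so the count could not change there either. The same holds for the mean of all probe sets and for only probe sets without a suffix. Adding 64 on the linear scale makes each difference smaller. Only the lowess and quantile scalings left the count free to change. The count higher by 0.32 was 1 instead of 2 with the mean of all probe sets, where Slc22a26 was at 0.21, and 1 with only probe sets without a suffix, where Slc22a7 had no probe set. The count lower by 0.32 was 1 instead of 0 without the filter, and that gene was Slc22a4, near background. The median over measured transporter genes lay between -0.0067 and 0.026, changing sign with only probe sets without a suffix. Slc22a7 lay between 0.41 and 0.43 over 7 alternatives. With 1 probe set and a high mean, its value could not change under the filter, the mean of all probe sets or median centring. Slc22a5 was at -0.26 with the mean of all probe sets, which adds its probe set near background. Slco2a1 ranged from -0.0036 to 0.010. The alternative scalings moved the median of all genes by less than 0.1.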
